A study of Mus musculus with 8 samples.

Results

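The genes of the Eya-Six-Dach network followed here in mouse pancreas were Eya1, Eya2, Eya3, Eya4, Six2, Six4, Six5 and Dach1, 8 of the 28786 gene names on an expression array, read by 15 of its 41174 probes. Every non-control probe carrying one of these gene names was taken, whatever its signal. The family was chosen on earlier results of the Glis3KO2 against WT comparison of these same signals, so that comparison is given here as a description. Pancreas came from C57BL/6 mice at 1 week of age, of the genotypes Glis3KO2 (4 samples) and WT (4 samples). Glis3, a transcription factor with zinc fingers, is known for its part in making beta cells. What the Glis3KO2 allele removes is not given in the labels, and no Cre or transgene is named. Each sample had 1 single-colour array, started from 500 ng of total RNA. Nothing in the labels ties the pups to litters, and the SDs measure the spread between these samples, which may share a litter. Each SE comes from the fit over all probes, which draws a probe's variance toward that of the other probes (limma, eBayes). An SE is therefore not the spread of these samples alone, and can be larger or smaller than that spread would give.

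Eya proteins are coactivators with a protein tyrosine phosphatase domain. They do not bind DNA themselves and are brought to genes by Six-family homeodomain factors, while Dach proteins act with the same factors, often as corepressors. The network takes its name and its order from the fly eye, and in mammals it is known from the kidney, the inner ear and skeletal muscle. In the pancreas, Dach1 has been described in islet development, and SIX2 and SIX3 in adult human beta cells.

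All values are log2 signals relative to the 75th percentile of the same array, so 0 is the level of a fairly bright spot. Probes differ in how well they hybridise, and levels are compared between samples and not between probes. The scanner software flags a clear signal as well above background, which held for 31353 to 33213 probes on the Glis3KO2 arrays and 32666 to 35613 on the WT arrays. The dimmest of these lay between -6.32 and -5.29. Of the 15 probes, 13 had that flag on 4 or more arrays and entered the fit over 33239 probes. The Glis3KO2 arrays lay on 1 slide and the WT arrays on another, with separate scans. Genotype therefore cannot be told apart from slide or scan. Glis3KO2 replicates 3 and 4 stood apart on the first principal component, at -39.8 and -59.0 against -0.46 to 26.0 for the other arrays. Xist, the transcript of the inactive X chromosome in females, was well above background on 3 Glis3KO2 arrays and 1 WT array by its brightest probe. The single Glis3 probe was well above background on 0 Glis3KO2 and 3 WT arrays. It averaged -6.15 ± 0.21 in Glis3KO2 and -5.58 ± 0.33 in WT (SD, n = 4 each), and the labels do not say whether it lies in the deleted part. The tissue carried its defining markers, with all 6 acinar, 7 beta cell and 5 duct genes well above background on every array.

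Eya4, the family member known for its roles in hearing and the heart, was read by 3 probes whose sequences are shown because they gave different answers. All lie on the minus strand of chromosome 10 (mm7, the build of the array's own annotation). The most upstream is A_52_P608186, at chr10:22868394-22870681. Its 60 bases cover 2288 bp of the genome, so it crosses at least 1 intron and reads spliced transcript. A_52_P86424 lies downstream of it at chr10:22861052-22861111 and A_52_P295933 further downstream at chr10:22859936-22859995. The last is 1.06 kb from the middle probe and 8.4 kb from the upstream one. A_52_P86424 and the upstream probe are assigned to the RefSeq transcript of Eya4. A_52_P295933 carries the gene name Eya4 but is assigned to the cDNA of RIKEN clone B130023L16, whose product the array annotation calls unclassifiable. RefSeq lists B130023L16Rik as a synonym of Eya4. The files do not say which exon or untranslated region holds a probe. No base is in capitals because no part of a probe was singled out. The upstream probe is printed whole and the others by their first 30 bases.
A_52_P608186: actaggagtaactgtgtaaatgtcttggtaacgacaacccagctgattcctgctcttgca
A_52_P86424: ggccctgtttacaaatgggtagattgaaga
A_52_P295933: gtgacaagcctacattctctgtgaatatgg

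The most downstream Eya4 probe was higher in Glis3KO2 pancreas. A_52_P295933 read -2.45, -2.22, -1.89 and -2.28 on Glis3KO2 replicates 1 to 4, against -3.94, -4.02, -3.90 and -3.44 on WT replicates 1 to 4. Every Glis3KO2 array was above every WT array, and the highest WT value was that of replicate 4. The means were -2.21 ± 0.23 in Glis3KO2 and -3.82 ± 0.26 in WT (SD, n = 4 each), a log2 difference of 1.61 (SE 0.17), or 3.06-fold. Before scaling, its processed signals were 84.7, 121, 188 and 112 units on the Glis3KO2 arrays and 32.5, 28.3, 35.3 and 46.4 units on the WT arrays. The signal was dim but well above background on all 8 arrays. With a normexp background, which adds an offset that shrinks differences of dim probes, the log2 difference was 0.81.

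The middle Eya4 probe differed in the same direction. A_52_P86424 read -3.64, -3.74, -3.37 and -3.59 on the Glis3KO2 arrays, against -5.36, -4.67, -4.68 and -4.36 on the WT arrays. The groups did not overlap, and the lowest value by some distance was WT replicate 1. Its log2 difference was 1.18 (SE 0.20), which did not pass the threshold of the fit over all probes, and it was 0.29 with a normexp background. The upstream, intron-crossing probe gave overlapping groups. A_52_P608186 read -2.77, -3.70, -3.73 and -3.43 on the Glis3KO2 arrays, against -3.58, -3.68, -3.77 and -4.04 on the WT arrays. The log2 difference was 0.36 (SE 0.22), and without Glis3KO2 replicate 1, the highest of the 8 arrays, it was 0.15.

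**Figure D1:**
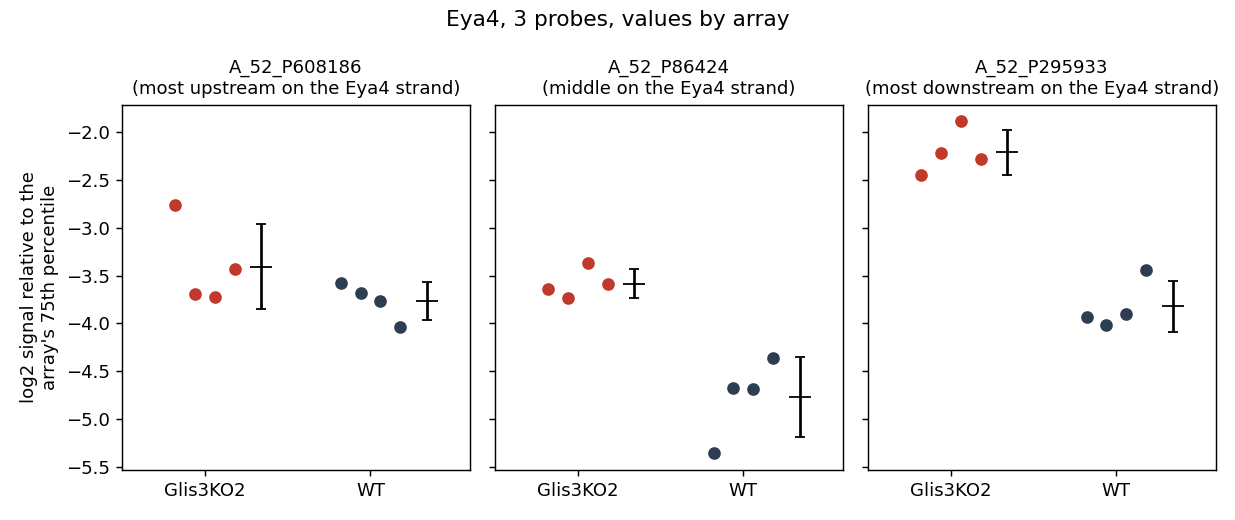
Scaled log2 signal (y axis, 0 at the 75th percentile of each array) for the 3 Eya4 probes, with Glis3KO2 arrays in red and WT arrays in dark blue. Points are arrays in replicate order, filled since all were well above background, and bars show the mean and SD of 4. The groups overlap for the upstream probe and are apart for the middle and downstream probes.

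The unequal change of the Eya4 probes can be read within each array, where scaling cancels. The downstream minus the upstream probe was 0.32, 1.47, 1.84 and 1.15 on the Glis3KO2 arrays and -0.35, -0.34, -0.13 and 0.60 on the WT arrays. Of the 4 Glis3KO2 arrays, 3 exceeded every WT array, and replicate 1 lay below WT replicate 4. The middle minus the upstream probe was -0.87, -0.04, 0.36 and -0.16 on the Glis3KO2 arrays and -1.77, -0.99, -0.92 and -0.32 on the WT arrays, again with overlap through Glis3KO2 replicate 1. Over the 8 arrays the downstream and middle probes had a Pearson correlation of 0.94, and of 0.59 after the mean of each genotype was taken away. The downstream and upstream probes had 0.33 and -0.76. These correlations share arrays, slides and the genotype difference, and are given as descriptions.

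Eya4 was also read within the Xist classes, since the genotypes differed in their mix. Among arrays with low Xist, the downstream probe read -2.22 on 1 Glis3KO2 array against a mean of -3.95 on 3 WT arrays. Among arrays with high Xist, its mean was -2.20 on 3 Glis3KO2 arrays against -3.44 on 1 WT array. The differences were 1.73 and 1.23, and since the genotypes did not overlap, their shared sign was fixed beforehand. With Xist state as a covariate, an alternative chosen after seeing the data, the log2 difference was 1.48. For the upstream probe they were -0.02 with low Xist and 0.73 with high Xist, each resting on a group of 1 array.

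The other coactivators gave overlapping groups. Eya1, which is needed for kidney and ear development, was read by A_52_P36315 (chr1:14351185-14351244, mm7). It gave -3.67, -4.55, -4.63 and -4.55 on the Glis3KO2 arrays, against -3.94, -4.19, -3.81 and -3.77 on the WT arrays. Of the Glis3KO2 arrays, 3 lay below every WT array and replicate 1 lay above them all. The log2 difference was -0.42 (SE 0.22), and without Glis3KO2 replicate 1 it was -0.64. A further Eya1 probe, A_51_P375378, was well above background on 0 Glis3KO2 arrays and 1 WT array, and its values of -7.09 to -5.76 in Glis3KO2 and -6.82 to -5.82 in WT overlapped.

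Eya2, known from skeletal muscle and cranial placodes, gave -1.72, -1.24, -1.77 and -2.10 on the Glis3KO2 arrays, against -1.68, -1.50, -1.78 and -1.49 on the WT arrays. The Glis3KO2 arrays spanned the whole WT range, with an SD of 0.35 in Glis3KO2 and 0.14 in WT and a log2 difference of -0.10 (SE 0.18). Its sole probe is at chr2:165509915-165509974 (mm7).

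Eya3, the family member studied for its phosphatase action on the DNA damage mark of histone H2AX, had 4 probes that differed in sign. Their log2 differences were -0.11 (SE 0.10) for A_52_P427332, -0.22 (SE 0.18) for A_52_P1116481, 0.16 (SE 0.17) for A_52_P331237 and 0.37 (SE 0.21) for A_51_P459650. The groups overlapped for all 4. Both positive differences turned slightly negative with a normexp background, at -0.02 for A_52_P331237 and -0.009 for A_51_P459650. With that background the median over all tested probes was -0.04, below both. The brightest Eya3 probe, A_52_P427332, gave -0.40, -0.56, -0.64 and -0.46 on the Glis3KO2 arrays, against -0.46, -0.36, -0.27 and -0.52 on the WT arrays. The highest array was a WT one and the lowest a Glis3KO2 one, with the rest mixed. A_52_P1116481 read -3.79 to -3.11 on the Glis3KO2 arrays and -3.38 to -2.77 on the WT arrays. A_52_P331237, which spans 2700 bp and so crosses at least 1 intron, read -4.21 to -3.49 on the Glis3KO2 arrays and -4.13 to -3.80 on the WT arrays. A_51_P459650 read -4.79 to -4.24 on the Glis3KO2 arrays and -5.37 to -4.46 on the WT arrays. Within each of these ranges the 2 genotypes shared part of their values.

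The DNA-binding factors gave overlapping groups in every case. Six4, known from muscle formation, read -4.80, -4.76, -4.75 and -4.50 on the Glis3KO2 arrays and -4.57, -4.40, -4.47 and -4.81 on the WT arrays. Replicate 4 went against its group in both genotypes, as the highest Glis3KO2 array and the lowest WT array, and the log2 difference was -0.14 (SE 0.12). Six5, which lies next to the myotonic dystrophy gene Dmpk, read 0.83, 0.60, 0.89 and 1.04 on the Glis3KO2 arrays and 0.44, 0.67, 0.83 and 0.83 on the WT arrays, a log2 difference of 0.15 (SE 0.13). Six2, which keeps kidney nephron progenitors undifferentiated, was well above background on 0 Glis3KO2 arrays and 1 WT array. It read -7.01 to -5.80 in Glis3KO2 and -6.63 to -5.82 in WT, so no change in Six2 was measurable at this signal.

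Dach1, the cofactor, was read by a bright and a dim probe. The bright one, A_52_P309022 (chr14:92138750-92138809, mm7), gave -0.50, -0.60, -0.21 and -0.44 on the Glis3KO2 arrays, against -0.04, -0.22, 0.19 and -0.03 on the WT arrays. The groups touched only where Glis3KO2 replicate 3, at -0.21, met WT replicate 2, at -0.22. The log2 difference was -0.41 (SE 0.13), which did not pass the threshold of the fit over all probes. It lay between -0.52 and -0.34 under every alternative processing, several of which leave the estimate unchanged. Under 0 of the 18 alternatives was it past the threshold. The dim probe, A_51_P356552, spans 8707 bp and so crosses at least 1 intron. It gave -3.96, -4.62, -5.27 and -5.10 in Glis3KO2 and -4.81, -4.50, -5.18 and -4.46 in WT, a log2 difference of -0.003 (SE 0.29).

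**Figure D2:**
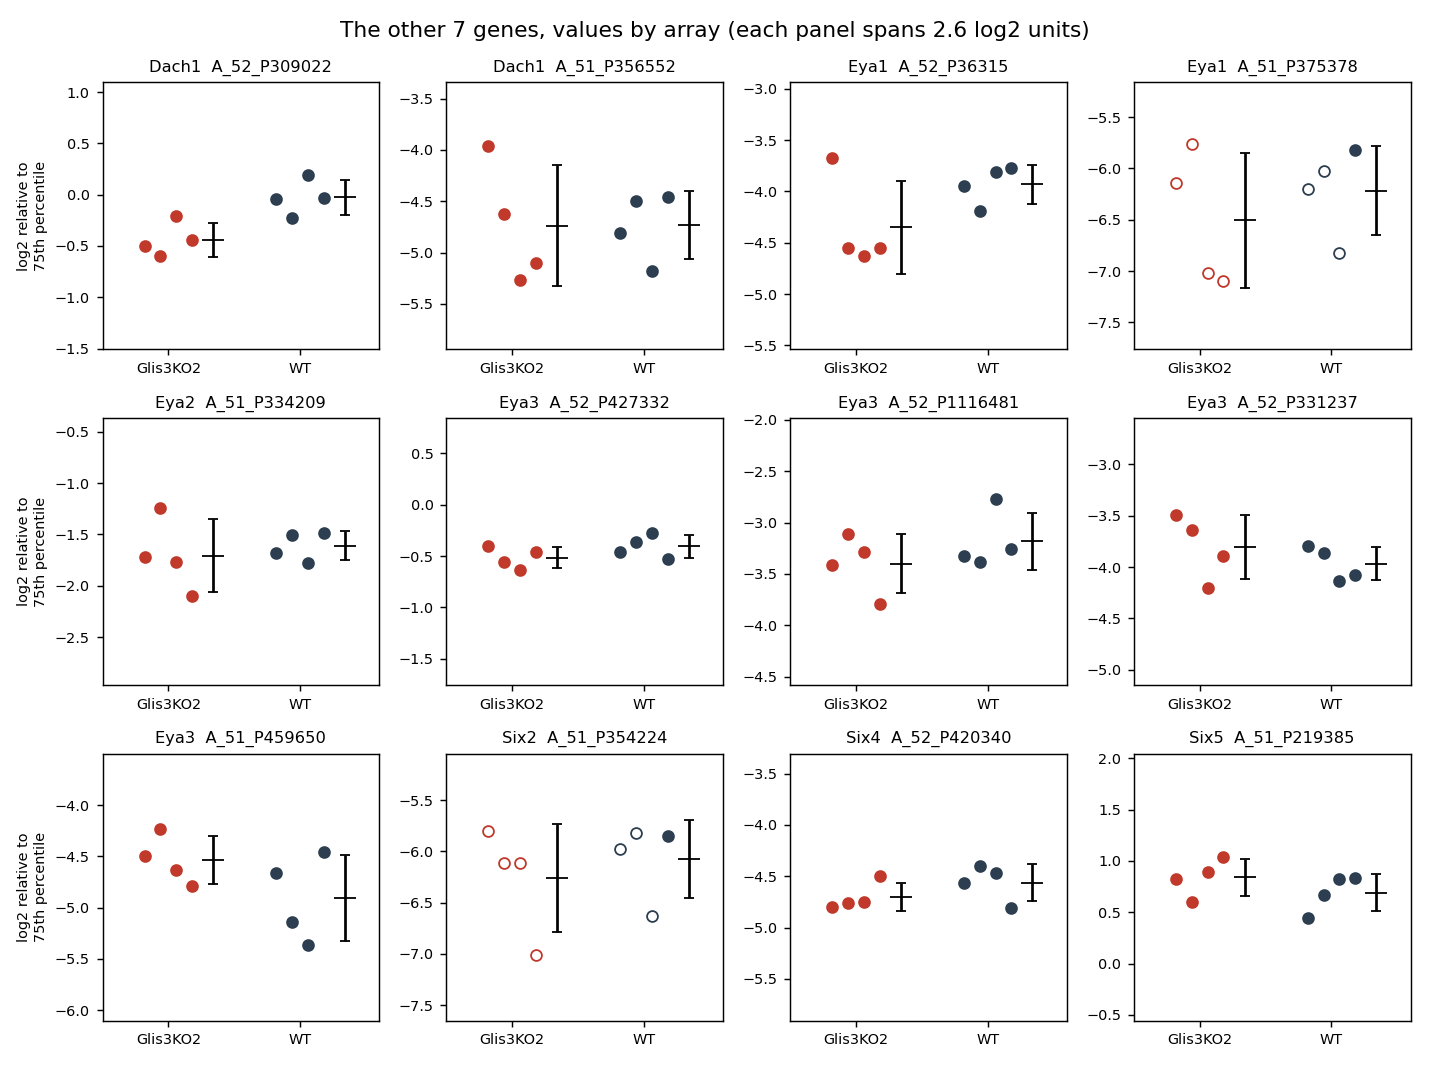
Scaled log2 signal (y axis, 0 at the 75th percentile of each array, the same span in each panel) for the 12 probes of the other 7 genes, with Glis3KO2 arrays in red and WT arrays in dark blue. Filled points were well above background and open points were not, and bars show the mean and SD of 4. The groups overlap in all 12 panels, by the smallest margin for Dach1 A_52_P309022.

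Set side by side, 1 of the 13 tested probes of the family was past an adjusted p of 0.05 in the fit over all probes (limma, Benjamini-Hochberg), the downstream Eya4 probe, and it was higher in Glis3KO2. Over all tested probes 0.256% were past that threshold in either direction and 0.0812% were higher. Every Glis3KO2 array was above every WT array for 2 of the 13 probes, both of Eya4, and for 1.86% of all tested probes. The reverse held for 0 of the 13 and for 3.35% of all, which makes 5.2% of all probes without overlap in either direction. Since the family was chosen with these values known, nothing is read from those shares. The median log2 difference was -0.003 over the 13 tested probes and -0.009 over all tested probes, with 6 of the 13 positive and 7 negative. No run of more than 11 bases was shared between probes of different genes of the family. Only the probe sequences were compared, so binding of a probe to another gene's transcript was not tested.

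**Figure D3:**
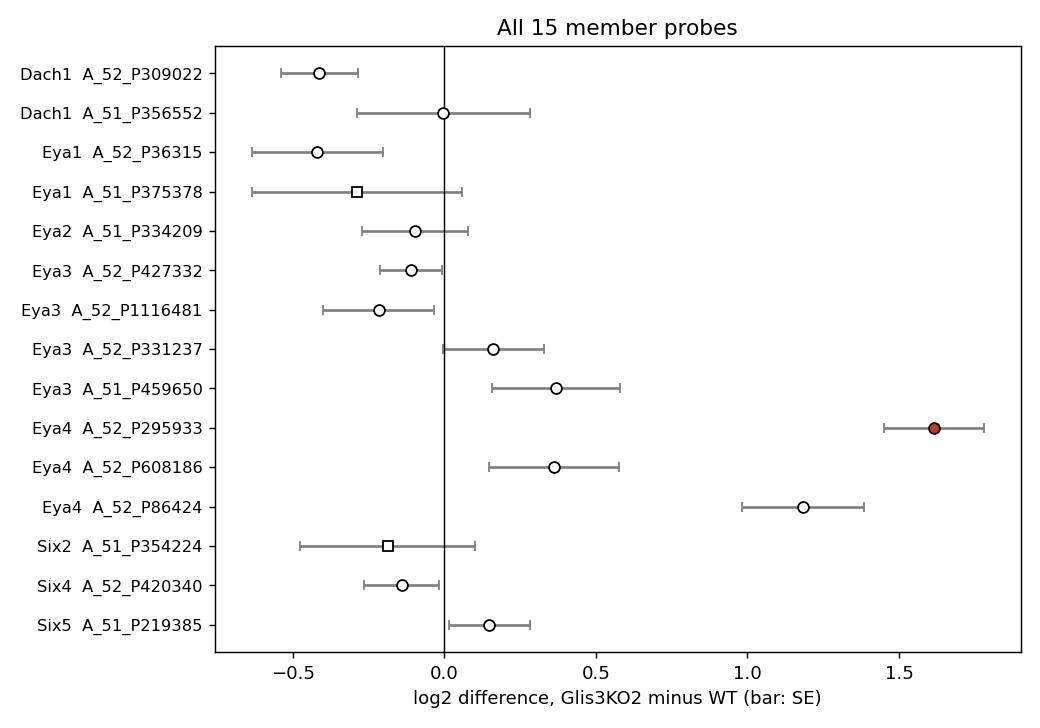
Log2 difference, Glis3KO2 minus WT (x axis), for all 15 probes, ordered by gene and then by brightness, with the SE as bars. The red point is the probe past the threshold, white circles are tested probes that were not, and squares are the 2 probes too dim to be tested. The downstream Eya4 probe stands at 1.61 and the middle one at 1.18, while the others lie between -0.42 and 0.37.

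The Eya4 call held when any single array was left out and was lost without Glis3KO2 replicates 3 and 4, the only pair left out together. The downstream probe remained past the threshold without any single array, with log2 differences of 1.51 to 1.74. Without Glis3KO2 replicates 3 and 4 together, the pair that stood apart, its log2 difference was 1.49 and it was no longer past the threshold. With that pair left out, the count past the threshold over all tested probes went from 85 to 11. Islet markers differed with genotype beside Eya4. Of 7 beta cell markers 5 fell (limma, the same threshold), among them Ins2, an insulin gene, with a log2 difference of -3.70, while 0.174% of all tested probes were lower past it. Iapp, the islet amyloid gene, had a positive log2 difference of 0.45 with overlapping groups, and Mafa, a beta cell transcription factor, had -0.75, also with overlap. The summed level of the 7, in multiples of the 75th percentile, was 191 to 396 on Glis3KO2 arrays and 732 to 902 on WT arrays. Of 4 markers of other islet cells 1 was past the threshold, Ppy, with a log2 difference of -2.01. All 4 had every Glis3KO2 array below every WT array, as had 3.35% of all tested probes. Their summed levels, to which Gcg as the brightest gave the most, were 123 to 201 in Glis3KO2 and 209 to 236 in WT. All of these islet markers were well above background on every array, so none was at 0. The part of these markers in the Eya4 difference was not tested. In a whole organ, fewer cells of a type and less RNA per cell cannot be told apart.

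Among 45 tested markers of 9 non-islet cell kinds (acinar, duct, mesenchyme, skeletal muscle, nerve and glia, endothelium, leukocyte, fat and dividing cells), 0 passed the threshold by limma and 9 had an unadjusted p below 0.05, a level that 2983 of all 33239 tested probes reached. All 4 markers of dividing cells were among the 9, with summed levels of 19.3 to 29.3 in Glis3KO2 and 17.9 to 21.4 in WT. Skeletal muscle, a main site of the network's activity, had summed levels of 1.06 to 1.46 in Glis3KO2 and 0.94 to 1.41 in WT, which overlapped. All 6 nerve and glia markers had negative log2 differences, and all 6 mesenchyme markers positive ones. The nerve and glia sums of 3.27 to 4.07 in Glis3KO2 and 4.04 to 4.88 in WT overlapped. Among them Nefl, named after its values were seen, had a log2 difference of -0.81 with every Glis3KO2 array below every WT array. The summed level of the 5 endothelial markers was 15.3 to 18.4 in Glis3KO2 and 19.8 to 23.7 in WT, without overlap. Singly, 2 of the 5 had no overlap (Kdr and Flt1, named after their values were seen), and 0 of the 5 passed the threshold. In both, every Glis3KO2 array was below every WT array, as for 3.35% of all tested probes. Kdr and Flt1 were also the brightest of the 5, so the sum rests largely on them. Pecam1, Cdh5 and Tek overlapped, with log2 differences of -0.13, -0.09 and -0.16. The part of the endothelial or the nerve and glia markers in the Eya4 difference was not tested.

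Other genes of the network were taken from a list of 36 with a probe, and 33 were tested. None passed the threshold by limma in either direction, and 7 had an unadjusted p below 0.05, as did 2983 of the 33239 probes tested in all. Their median log2 difference was 0.009, with 17 positive and 16 negative. Every Glis3KO2 array was above every WT array for 1 of the 33 and below for 4. Over all tested probes these shares were 1.86% and 3.35%. Of other family members, Dach2, the relative of Dach1, read -3.11, -2.77, -3.10 and -3.19 on the Glis3KO2 arrays and -3.66, -3.28, -3.27 and -3.86 on the WT arrays. The groups did not overlap, and the log2 difference was 0.47 (SE 0.16, limma adjusted p = 0.437). A dimmer Dach2 probe, well above background on 1 Glis3KO2 and 2 WT arrays, had overlapping groups and -0.09, and was not tested. Six3, a factor of forebrain and eye, had a log2 difference of 0.52 (SE 0.42, limma adjusted p = 0.771) by its brightest probe and -0.31 by a dimmer one. Six6, a factor of eye and pituitary, was well above background on 0 arrays and was not tested. On the array's build the Six2 and Six3 probes are 60.8 kb apart on chromosome 17.

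The Pax factors, which act upstream of the network in several organs, had 8 of 9 genes tested. Pax6, a factor of all islet endocrine cells, read -0.63, -0.72, -0.87 and -1.47 on the Glis3KO2 arrays and -0.37, -0.51, 0.23 and -0.11 on the WT arrays. The groups did not overlap, and the log2 difference was -0.73 (SE 0.22, limma adjusted p = 0.358). Pax1, a factor of the developing skeleton and thymus, was named after its values were seen, as the tested network gene with the largest difference in size. It read -5.63, -6.69, -6.21 and -6.16 on the Glis3KO2 arrays and -4.85, -5.58, -4.26 and -4.98 on the WT arrays. The groups did not overlap, and the log2 difference was -1.25 (SE 0.29, limma adjusted p = 0.217). Only 1 Glis3KO2 value carried the flag for a clear signal, against all 4 WT values, so the size of this difference is uncertain. A dimmer Pax1 probe, A_52_P511843, had overlapping groups and a log2 difference of -0.42, and was not tested. Pax4, a factor of beta cell progenitors, was well above background on 2 arrays of each genotype and had a log2 difference of -0.15 (SE 0.28, limma adjusted p = 0.921). Among 9 tested genes described elsewhere as targets of the network, 4 were positive and 5 negative. Among 13 partners and cofactors, 7 were positive and 6 negative.

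Among the genes whose pattern over the 8 arrays was most like that of the downstream Eya4 probe were Inhba, Gnas, Olfml3 and L3hypdh, with Pearson correlations of 0.990, 0.965, 0.965 and 0.957. After the mean of each genotype was taken away, these were 0.846, 0.507, 0.789 and 0.794. Inhba encodes a subunit of activin, and averaged 0.94 ± 0.11 in Glis3KO2 and -0.43 ± 0.18 in WT (SD, n = 4 each), a log2 difference of 1.37 (SE 0.12). Gnas, which encodes the stimulatory G protein alpha subunit, had a log2 difference of 0.24 (SE 0.08). All 4 had every Glis3KO2 array above every WT array, as had 1.86% of all tested probes. They were picked for likeness to a probe whose groups do not overlap, so this was nearly fixed beforehand. Of the 4, Inhba was past the threshold of the fit, while Gnas, Olfml3 and L3hypdh were not. The 8 arrays share the genotype and slide difference, and the likeness is given with no test.

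**Figure D4:**
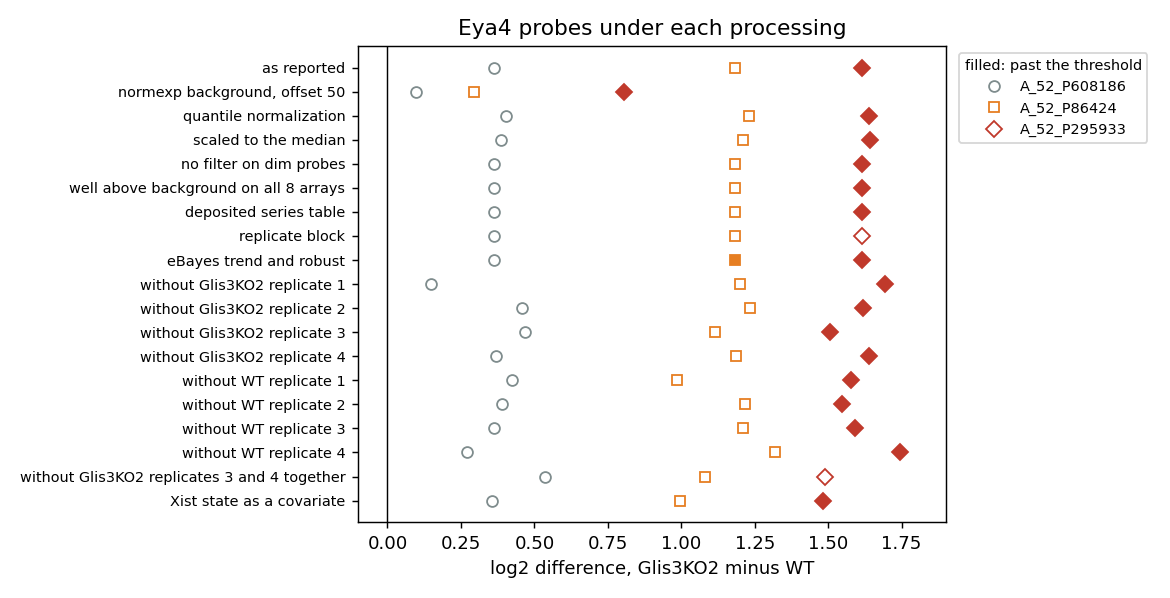
Log2 difference, Glis3KO2 minus WT (x axis), of the 3 Eya4 probes under the reported processing (top row) and each alternative, with filled symbols where the probe was past the threshold. The downstream probe (diamonds) lies between 0.81 and 1.74, the middle one (squares) between 0.29 and 1.32 and the upstream one (circles) between 0.10 and 0.54, in the same order in every row.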

How the data were processed

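Spot intensity values came from Agilent Feature Extraction 9.5.3.1, per the file headers (9.5 per the submitters' processing notes). Per the file headers, the authors' processed signal was detrended within each array (spatial and multiplicative), with the separate background correction switched off. Probe positions are on build mm7. The deposited series table held the same 45018 intensity values per array, linear and uncentred. Here, processed signals were put on the log2 scale and set to 0 at the 75th percentile of the array's 43379 spots other than controls. Spots flagged as outliers, 56 to 130 per array, were left out, no spot was saturated, and repeat spots of 1 probe were given as their mean. Probes well above background on at least 4 arrays were fitted with limma 3.58.1 in R 4.3.3 (lmFit, eBayes, 2-sided, genotype as the sole term), with Benjamini-Hochberg adjustment over 33239 probes. For the 2 dimmer probes, differences come from the same fit without the filter. A gene outside the family was read from its brightest probe. Of 25510 probes with a RefSeq accession, 22951 took the RefSeq symbol.

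The members and lists were chosen with earlier results of these data known. The rule for named genes took all probes of the members, Six3, Six6, Dach2, Pax4, Pax6, network genes past the threshold, and the 5 genes most correlated with the brightest Eya4 probe; some of the items it names are not reported here. The fit was tested on simulated data. Alternatives were normexp background with an offset of 50, quantile or median scaling, no filter on dim probes or one on all 8 arrays, values of the deposited table, a replicate block, trend and robust eBayes, and leaving out arrays. Xist state as a covariate was added after values were seen. Slide could not be a block, because each held 1 genotype. The 4 arrays per genotype limit the precision.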

Additional observations from a re-analysis of the deposited data

Results flagged for a closer look

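Of 30 sets of 4 arrays, each a genotype read by a probe of the family, 1 had an array far from the others. Eya1 probe A_52_P36315 read -3.67 on Glis3KO2 replicate 1, while the nearest Glis3KO2 array read -4.55 and the farthest -4.63. The gap was 0.916 of the whole range of the group, past Dixon's critical value for 4 samples. Chance alone flags about 1 in 20 such groups.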

How the results depend on the processing

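The downstream Eya4 probe stayed positive under all 18 alternatives, with log2 differences of 0.81 to 1.74, and lost its call under 2 of them. Its sign was nearly fixed beforehand. Changing the filter, the deposited table, the replicate block and trend and robust eBayes left the estimate at 1.61. Leaving out arrays could not turn the sign, since the groups do not overlap. With the replicate number as a block the downstream probe's log2 difference was 1.61, not past the threshold, so 0 probes of the family were past the threshold. Without Glis3KO2 replicates 3 and 4 together it was 1.49, and again 0 probes of the family were past it. With trend and robust eBayes 2 probes were past it, the middle Eya4 probe being the second. The causes were not tested. Leaving out 1 array left 1 probe in each case. Signs changed under at least 1 alternative for Dach1 A_51_P356552, Eya2 A_51_P334209, Eya3 A_52_P331237 and Eya3 A_51_P459650, none of them ever past the threshold.

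Over all probes 85 were past the threshold, against 51 with no filter on dim probes, where more probes were tested, 15 with the replicate block and 142 with trend and robust eBayes. There were 11 without Glis3KO2 replicates 3 and 4, and 28 with Xist state as a covariate, chosen after seeing the data. Leaving out 1 array gave 35 to 96. The network genes had 0 past the threshold throughout. Same-numbered arrays had correlations of their deviations of 0.13, 0.09, 0.24 and -0.04 for numbers 1 to 4, and 5 of 8 samples correlated best with their own number. Not every correlation was over 0.1, so the numbers were not taken as pairs. Dim signals limit Six2, the second Eya1 probe and, with normexp background, the size of the Eya4 differences.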

Other observations

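Glis3KO2 replicate 1 was the highest of the 8 arrays for 4 of the 13 tested probes of the family, namely Eya1 A_52_P36315, Eya3 A_52_P331237, the upstream Eya4 probe and the dim Dach1 probe. Over all tested probes it was the highest array for 19.5%. Of the family's probes that cross an intron, all 3 are among these (Eya3 A_52_P331237, Eya4 A_52_P608186 and Dach1 A_51_P356552). They are also dim, with means over the 8 arrays of -3.89, -3.59 and -4.74. This was seen after their values were known and was not tested. The share among all intron-crossing probes of the array was not taken, so nothing is read from it.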
